A study of Mus musculus with 583 samples.

Results

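The 5 genes described here are the metallothionein genes Mt1 and Mt2, the zinc-sensing transcription factor gene Mtf1, the zinc exporter gene Slc30a1 and the zinc importer gene Slc39a10. They were chosen by name from a table of 38924 mouse genes, after earlier results on these cells had shown that the metallothioneins varied from cell to cell and moved together. Those 2 features of Mt1 and Mt2 are therefore given below as descriptions, with no test. All cells belonged to J1, an established line of mouse embryonic stem cells of a single genotype, kept untreated in 2i/LIF, a medium with LIF and inhibitors of MEK and GSK3 that holds them in the naive state. Every group shared that line and medium, and the groups differed in the single-cell RNA-seq protocol: Smart-seq / C1, Smart-seq2, CEL-seq2, MARS-seq, SCRB-seq or Drop-seq, with libraries A and B of each. The 12 libraries held 29 to 80 cells each. The comparison asks how the same genes in the same kind of cell are seen through each protocol.

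Metallothioneins are small, cysteine-rich proteins that bind zinc and copper and buffer their free concentration in the cell. When zinc rises, MTF1 binds metal response elements in promoters and activates Mt1, Mt2 and Slc30a1, whose product ZnT1 pumps zinc out across the plasma membrane. The product of Slc39a10, ZIP10, carries zinc inward, and its gene is known to be repressed by MTF1 when zinc is plentiful. Glucocorticoids and oxidative stress also induce metallothioneins.

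Smart-seq / C1 and Smart-seq2 spread reads over whole transcripts, and the remaining 4 count unique molecular identifiers (UMIs) at the 3' end. The tag protocols CEL-seq2 and MARS-seq use in vitro transcription as their amplification, whereas SCRB-seq and Drop-seq use PCR. Summed counts of mouse genes per library ran from 17630767 to 34984056 reads in the full-length protocols and from 583302 to 2784441 UMIs in the tag protocols. Naive stem cell markers summed to between 3593 and 7753 CPM (counts scaled to 1000000 per library). Markers of endoderm reached at most 34 CPM, with Ttr at 0 in every library, and markers of fibroblasts at most 39.6 CPM, with Postn and S100a4 at 0 in every library. Trophectoderm markers summed to between 30 and 246 CPM. CEL-seq2 A held both the lowest sum of naive markers and the highest sum of each other marker list. In Drop-seq, 29 of 42 barcodes of A and 12 of 34 of B lay 1 base from another barcode of their library, so some may be the same cell, and joining them left 25 and 28. Well or barcode names recurred between A and B in the other 5 protocols (19 to 66 names), as plate positions do. The labels do not say that A and B came from separate cultures, so every p-value below measures only the spread between these libraries.

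Mt1 (ENSMUSG00000031765) lies on chromosome 8 at 94179082 to 94180327 of GRCm38 and Mt2 (ENSMUSG00000031762) at 94172664 to 94173568, both on the plus strand, with 5514 nt between the end of Mt2 and the start of Mt1. The promoter windows of RefSeq (GRCm38.p6, 250 bases before to 50 after the start site) are shown for the 3 members that held the core of the metal response element, TGCACNC or TGCGCNC, searched on both strands. Capitals mark each match, written as it reads on the strand of the gene, and the windows are chr8:94178839-94179138 for Mt1, chr8:94172368-94172667 for Mt2 and chr1:191906531-191906830 for Slc30a1, all on the plus strand.
Mt1: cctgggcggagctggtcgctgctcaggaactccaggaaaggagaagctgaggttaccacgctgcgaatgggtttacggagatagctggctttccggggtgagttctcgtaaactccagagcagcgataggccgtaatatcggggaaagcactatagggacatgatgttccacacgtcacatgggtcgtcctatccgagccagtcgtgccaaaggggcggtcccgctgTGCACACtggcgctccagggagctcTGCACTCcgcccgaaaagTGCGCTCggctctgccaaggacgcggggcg
Mt2: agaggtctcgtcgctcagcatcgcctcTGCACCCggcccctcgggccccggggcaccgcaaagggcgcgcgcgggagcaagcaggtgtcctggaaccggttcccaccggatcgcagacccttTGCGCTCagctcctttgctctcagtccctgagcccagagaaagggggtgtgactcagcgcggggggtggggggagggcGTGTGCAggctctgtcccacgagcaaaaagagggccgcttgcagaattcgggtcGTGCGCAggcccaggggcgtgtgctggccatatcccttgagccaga
Slc30a1: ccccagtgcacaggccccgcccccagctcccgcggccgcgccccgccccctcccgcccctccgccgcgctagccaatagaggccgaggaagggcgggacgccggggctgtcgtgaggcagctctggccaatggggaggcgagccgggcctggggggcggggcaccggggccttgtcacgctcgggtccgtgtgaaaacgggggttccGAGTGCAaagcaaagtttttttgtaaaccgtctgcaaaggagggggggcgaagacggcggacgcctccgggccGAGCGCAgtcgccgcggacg
Mt2 held 4 matches, and at least 4 occurred in 0.517% of the 32851 RefSeq windows of this length. Mt1 held 3 (at least 3 in 1.97% of windows) and Slc30a1 held 2 (at least 2 in 7.11%), while at least 1 match occurred in 25.7%. With the start site of the RefSeq window at 0, the first bases of the Mt1 matches were at -23, 2 and 20. Those of Mt2 were at -223, -128, -50 and 4. The gene start of Mt2 given above, 94172664, lies near the end of its window, past all 4 matches. Neither the window of Mtf1 nor the 2 windows of Slc39a10 held a match. A match describes these letters only and says nothing of binding.

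The members differed in how far their reads could be assigned. The longest Mt1 transcript of GENCODE M21 shared no 31-base stretch with another gene, and over all their transcripts Mt1 and Mt2 shared 0 such stretches. Of the Mt2 transcript, 55.5% of such stretches were shared with Gm45774, an antisense gene on the opposite strand that is not analysed here, and without stated strand use the counts of Mt2 carry that uncertainty. Mt2 also shared 3 stretches with Pip5k1a. The shares were 9.09% for Mtf1 (ENSMUSG00000028890, chromosome 4, 124802104 to 124849800, plus strand), with 1110065P20Rik, and 8.42% for Slc30a1 (ENSMUSG00000037434, chromosome 1, 191906767 to 191913247, plus strand), with 1700034H15Rik. Both partners lie on the opposite strand. For Slc39a10 (ENSMUSG00000025986, chromosome 1, 46807544 to 46892852, minus strand) it was 1.32%.

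Metallothionein transcripts were present in nearly every cell. Mt1 was counted in 581 cells and missed in 2, and Mt2 was counted in 582 and missed in 1. Mean UMIs of Mt1 per cell lay between 16 and 109 in the 8 tag libraries, and those of Mt2 between 24.1 and 81.9. The regulators and transporters were far sparser: Mtf1 averaged 0.533 to 2.43 UMIs per cell in those libraries, Slc30a1 0.214 to 6.38 and Slc39a10 0.172 to 4.67. Mtf1 was counted in 377 cells, Slc30a1 in 294 and Slc39a10 in 425. The share of cells with Slc30a1 ran from 16.7% (6 of 36 cells, exact 95% Clopper-Pearson interval 6.37 to 32.8%) in MARS-seq B to 94.6% (35 of 37 cells, 81.8 to 99.3%) in CEL-seq2 B. After each cell was thinned to 10000 counts, which left out no cell, the share for Slc30a1 was 40.5% in CEL-seq2 B and ran from 2.50% in Smart-seq2 A to 47.1% in CEL-seq2 A. Intervals cover counting error only, and no cell type lacking these genes was present to give a background share. The other family members were near the floor: Mt3 was counted in 95 cells and Mt4 in 30, at no more than 6.55 and 6.75 CPM in any library.

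The 12 libraries were next compared on counts summed over cells, as CPM scaled by TMM factors and tested with edgeR. In the joint test of all 6 protocols 4 of the 5 members differed (adjusted p = 0.000698 for Mt1, 3.27e-06 for Mt2, 0.000157 for Slc30a1 and 0.000171 for Slc39a10), beside 65.4% of the 14293 genes tested. Mtf1 did not pass, with an adjusted p of 0.0688, but passed by DESeq2 (adjusted p = 0.00199) and with its size factors in edgeR (0.0272). All 5 members passed the filter on low counts.

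**Figure D1:**
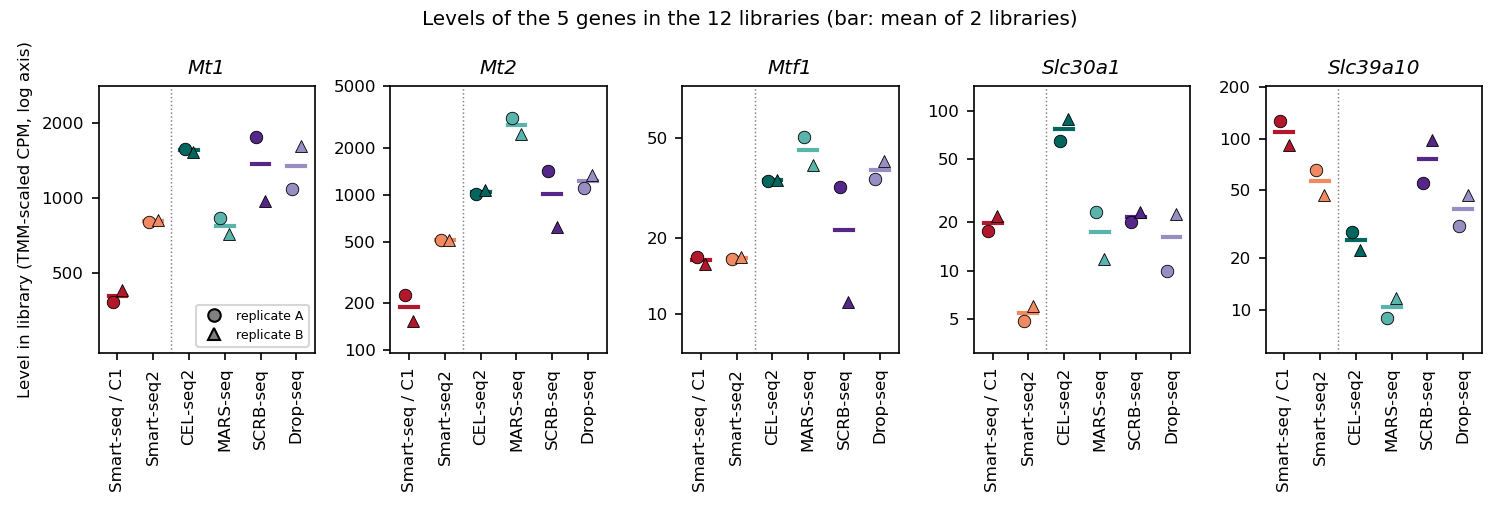
Level of each of the 5 genes in the 12 libraries, as TMM-scaled CPM on a log axis with its own range per gene; circles are library A, triangles library B, bars the mean of both, and the dotted line separates the full-length from the 3' tag protocols. Mt1 and Mt2 are lowest in Smart-seq / C1, Mt2 is highest in MARS-seq at 3148 and 2461 CPM, and Slc30a1 is highest in CEL-seq2 at 65 and 89.5 CPM.

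Mt1, the first of the zinc buffers, had 382 and 429 CPM with Smart-seq / C1 (libraries A and B) and 799 and 816 CPM with Smart-seq2. Among the tag protocols, Drop-seq gave 1082 and 1614 CPM, SCRB-seq 1756 and 975, MARS-seq 829 and 715 and CEL-seq2 1578 and 1531. Smart-seq / C1 was below every other library. MARS-seq overlapped with Smart-seq2, and the CEL-seq2, SCRB-seq and Drop-seq libraries lay above both and overlapped with each other.

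For Mt2, its neighbour on the chromosome, Smart-seq / C1 gave 225 and 153 CPM, Smart-seq2 514 and 514 and CEL-seq2 1014 and 1079.7. MARS-seq gave 3148 and 2461 CPM, SCRB-seq 1421 and 620.1 and Drop-seq 1115 and 1354. The order ran from Smart-seq / C1 through Smart-seq2 to the tag protocols, with no overlap between full-length and tag libraries. Among the tag protocols MARS-seq lay above all others, and the 2 SCRB-seq libraries spanned both CEL-seq2 and Drop-seq.

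Mtf1, which encodes the zinc sensor, had 16.9 and 15.8 CPM with Smart-seq / C1 and 16.6 and 16.8 with Smart-seq2, which did not differ beyond their spread. Drop-seq gave 34.2 and 40.5 CPM, SCRB-seq 32 and 11.2, MARS-seq 50.1 and 38.9 and CEL-seq2 33.7 and 34.1. SCRB-seq B, with 24 UMIs in all, lay below every other library. Without it the full-length and tag libraries would not overlap.

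Slc30a1, the exporter gene, had 17.8 and 21.9 CPM with Smart-seq / C1 and 4.86 and 5.97 with Smart-seq2. In the tag protocols it had 65 and 89.5 CPM with CEL-seq2, 9.92 and 22.7 with Drop-seq, 23.3 and 11.8 with MARS-seq and 20 and 23.3 with SCRB-seq. CEL-seq2 stood above and Smart-seq2 below all other libraries, and the remaining 4 protocols overlapped. Some tag values rested on few UMIs, with 9 in Drop-seq A, 10 in MARS-seq B and 13 in MARS-seq A.

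Slc39a10, the importer gene, ran the other way, with 127 and 91.7 CPM by Smart-seq / C1 and 66 and 46.8 by Smart-seq2. SCRB-seq gave 55.2 and 97.7 CPM, Drop-seq 30.9 and 47, CEL-seq2 28.7 and 22.4 and MARS-seq 8.95 and 11.8. MARS-seq (5 and 10 UMIs) and then CEL-seq2 lay below all other libraries. SCRB-seq overlapped with both full-length protocols, and Drop-seq with Smart-seq2.

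Full-length protocols were then set against 3' tag protocols (n = 4 and 8 libraries). They differ in whether whole transcripts or only their ends are read, but also in counting unit (reads against UMIs) and preparation. The contrast cannot separate these. Both metallothioneins were lower in the full-length protocols. Mt1 averaged 607 ± 233 CPM (SD, n = 4) there against 1260 ± 404 CPM (n = 8), a log2 difference of -1.09 (SE 0.21, adjusted p = 0.000304). For Mt2 the means were 351 ± 190.3 and 1527 ± 845 CPM, with a log2 difference of -2.15 (SE 0.24, adjusted p = 8.29e-07). Mtf1 was lower by -1.0 (SE 0.32, adjusted p = 0.0154) and Slc30a1 by -1.32 (SE 0.33, adjusted p = 0.00317), while Slc39a10 was higher by 1.40 (SE 0.26, adjusted p = 0.000218). Of the 5 members 1 was thus higher and 4 lower, beside 25.6% of all genes tested higher and 23.2% lower, and the median log2 difference of all genes was 0.21. The balance over all genes turned with the scaling, from 3653 higher and 3322 lower to 2929 and 3546 with DESeq2's size factors and 3098 and 4171 by DESeq2, while the members kept their signs. The Mtf1 call rested on single libraries: without Smart-seq / C1 B, either Smart-seq2 library, CEL-seq2 A, either MARS-seq library, SCRB-seq A or either Drop-seq library its adjusted p lay between 0.0671 and 0.201, and with no filter on low counts it was 0.0836.

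Transcript length moved with this contrast over all genes. The median log2 difference was -5.70 among 1074 genes whose longest GENCODE transcript had over 300 and up to 600 nt, 0.34 for over 1000 to 3000 nt and 0.44 above 6000 nt. The Mt2 transcripts had 388 and 511 nt, and those of Mt1 549, 633 and 1085 nt. The Mt1 transcript of 1085 nt has 1 exon, and which transcripts gave the counts is not known. Mt1, at -1.09, lay below the lower quartile (-0.72) of the class of that transcript. Its 2 shorter transcripts fall in the classes with medians of -5.70 and -3.00, which Mt1 lay above. Mt2, at -2.15, thus lay above the upper quartile of its length class (-3.91). The longest transcripts of Mtf1 (7631 nt), Slc30a1 (5244 nt) and Slc39a10 (5498 nt) all fell in long classes, yet the first 2 were lower and the third higher. The part of length in these differences was not tested.

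Within the full-length protocols, Smart-seq / C1, in which cells are captured on a Fluidigm chip, was set against Smart-seq2 (n = 2 libraries each). Mt1 was lower by -0.99 (SE 0.33, adjusted p = 0.0468) and Mt2 by -1.45 (SE 0.36, adjusted p = 0.0117), and Slc30a1 was higher by 1.87 (SE 0.51, adjusted p = 0.0184). Mtf1 (-0.03, adjusted p = 0.986) and Slc39a10 (0.96, SE 0.41, adjusted p = 0.123) did not pass. So 1 member was higher and 2 lower, beside 8.75% and 6.81% of all genes. The Mt1 call did not hold with the replicate letter as a block (adjusted p = 0.0524) or without Smart-seq / C1 A (0.062), Smart-seq2 A (0.201), Smart-seq2 B (0.221) or SCRB-seq B (0.051). Without Smart-seq2 A or B the adjusted p was 0.0692 and 0.0684 for Mt2 and 0.236 and 0.155 for Slc30a1, and for the latter 0.0531 without Smart-seq / C1 B.

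Among the tag protocols, amplification by in vitro transcription was set against PCR (n = 4 libraries each). These protocols may differ in other steps too, so the contrast does not isolate amplification. Slc39a10 alone passed, at 17.9 ± 9.20 CPM (SD, n = 4) against 57.7 ± 28.5 CPM (n = 4), with a log2 difference of -1.73 (SE 0.35, adjusted p = 0.00194). That is 0 members higher and 1 lower, beside 9.14% and 12.9% of all genes. Mt1 (-0.31, adjusted p = 0.36), Mt2 (0.61, adjusted p = 0.0932), Mtf1 (0.45, adjusted p = 0.416) and Slc30a1 (0.97, adjusted p = 0.0907) did not pass. Mt2 passed when Smart-seq / C1 A (adjusted p = 0.0323), Smart-seq / C1 B (0.0309) or SCRB-seq A (0.0471) was left out.

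CEL-seq2 and MARS-seq, both based on in vitro transcription (n = 2 libraries each), parted on the metallothioneins. They are separate preparations that may differ in other steps, such as cell capture, so no difference here can be tied to a single step. Mt1 was higher in CEL-seq2 by 1.01 (SE 0.33, adjusted p = 0.0331), Mt2 lower by -1.42 (SE 0.36, adjusted p = 0.00886) and Slc30a1 higher by 2.18 (SE 0.57, adjusted p = 0.00985). So 2 members were higher and 1 lower, beside 11% and 12.4% of all genes. Slc39a10 (1.26, SE 0.53, adjusted p = 0.0941) and Mtf1 (-0.38, adjusted p = 0.645) did not pass. The Mt1 call was lost with DESeq2's size factors (adjusted p = 0.0723) and without any of the Smart-seq2, CEL-seq2, MARS-seq or Drop-seq libraries or SCRB-seq A (0.0501 to 0.21). Without CEL-seq2 A, CEL-seq2 B or MARS-seq A the adjusted p of Mt2 was 0.0819, 0.0511 and 0.0838, and without CEL-seq2 B or MARS-seq B that of Slc30a1 was 0.0789 and 0.129.

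Drop-seq against SCRB-seq (n = 2 libraries each) separated no member at this depth, with 0 higher and 0 lower beside 1.03% and 0.483% of all genes. The log2 differences were -0.02 for Mt1, 0.27 for Mt2, 0.78 for Mtf1, -0.45 for Slc30a1 and -0.99 for Slc39a10 (adjusted p from 0.251 to 0.988). None of the 5 had an adjusted p below 0.05 by DESeq2 or in any other alternative run, and the signs for Mt1, Mt2 and Slc30a1 changed between alternatives. Of all genes, 147 were higher and 69 lower by edgeR, but 280 and 45 with DESeq2's size factors.

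The balance between the 2 metallothioneins set MARS-seq apart. Of the summed counts of both genes, Mt1 made up 20.8 and 22.5% in MARS-seq A and B. It made up 49.2 and 54.4% with Drop-seq, 55.3 and 61.1% with SCRB-seq, 60.9 and 58.6% with CEL-seq2, 60.8 and 61.3% with Smart-seq2 and 63 and 73.8% with Smart-seq / C1. Both MARS-seq libraries lay below the other 10, whose lowest was Drop-seq A, and the protocol mean was 21.7 ± 1.17% (SD, n = 2). The level of Mt1 in MARS-seq (829 and 715 CPM) overlapped with that in Smart-seq2 but lay below the other tag libraries. Mt2 in MARS-seq stood above every other library. No test was run on this share.

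**Figure D2:**
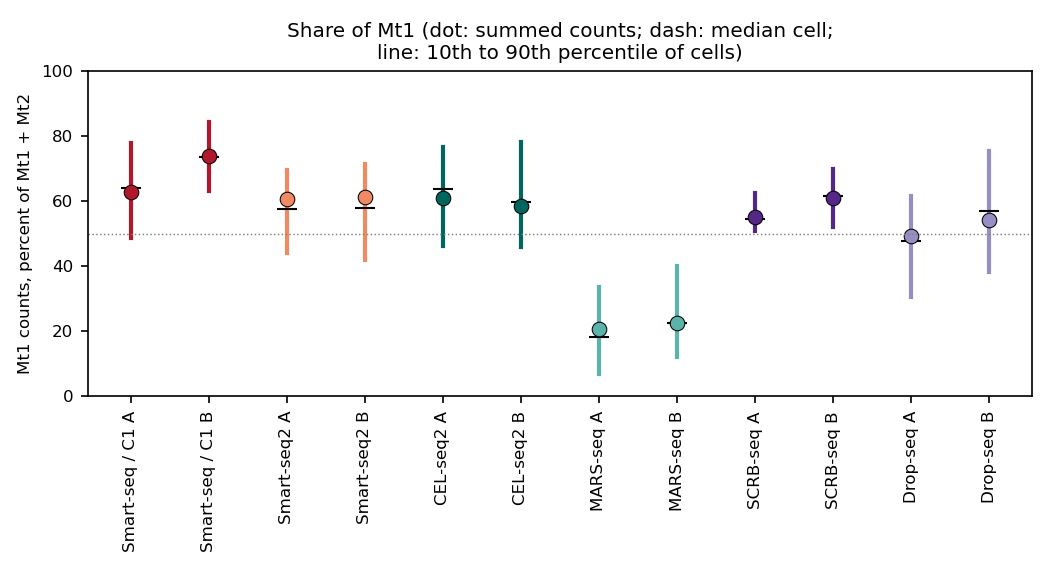
Share of Mt1 in the counts of Mt1 and Mt2 (percent) in each library; dots are summed counts, dashes the median cell with at least 10 counts of both genes together, and lines the 10th to 90th percentile of those cells. MARS-seq A and B sit at 20.8 and 22.5%, below all other libraries.

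Within a library the share also differed between cells by more than counting gives. Its variance over cells was 1.46 and 1.77 times the binomial expectation in SCRB-seq A and B, 2.13 and 3.89 in Drop-seq, 4.10 and 4.04 in MARS-seq and 5.88 and 5.65 in CEL-seq2. SCRB-seq cells thus kept the 2 genes in the steadiest ratio. In A the 10th and 90th percentiles of its cells were 50.8 and 62.6% Mt1. The ratio to the expectation was 21.8 and 30.1 with Smart-seq2 and 7.93 and 4.86 with Smart-seq / C1, where reads are counted without UMIs and are not independent molecules.

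Among the cells of a library, Mt1 and Mt2 rose and fell together. The Spearman correlation of log2 (counts per 10000 + 1), over 29 to 80 cells, was 0.92 and 0.91 in Smart-seq2 A and B, 0.80 and 0.83 with Smart-seq / C1, 0.68 and 0.87 with CEL-seq2 and 0.68 and 0.71 with MARS-seq. It was 0.72 and 0.48 with SCRB-seq and 0.71 and 0.35 with Drop-seq, with a mean of 0.72 ± 0.17 (SD, n = 12 libraries). It was above 0 in all 12. SCRB-seq B and Drop-seq B were the low libraries, and the values of a cell share its library and its total count. With cells thinned to 10000 counts the mean was 0.59 (lowest 0.20 in SCRB-seq B), and with near-identical Drop-seq barcodes joined the value was 0.77 in Drop-seq A and 0.29 in B.

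**Figure D3:**
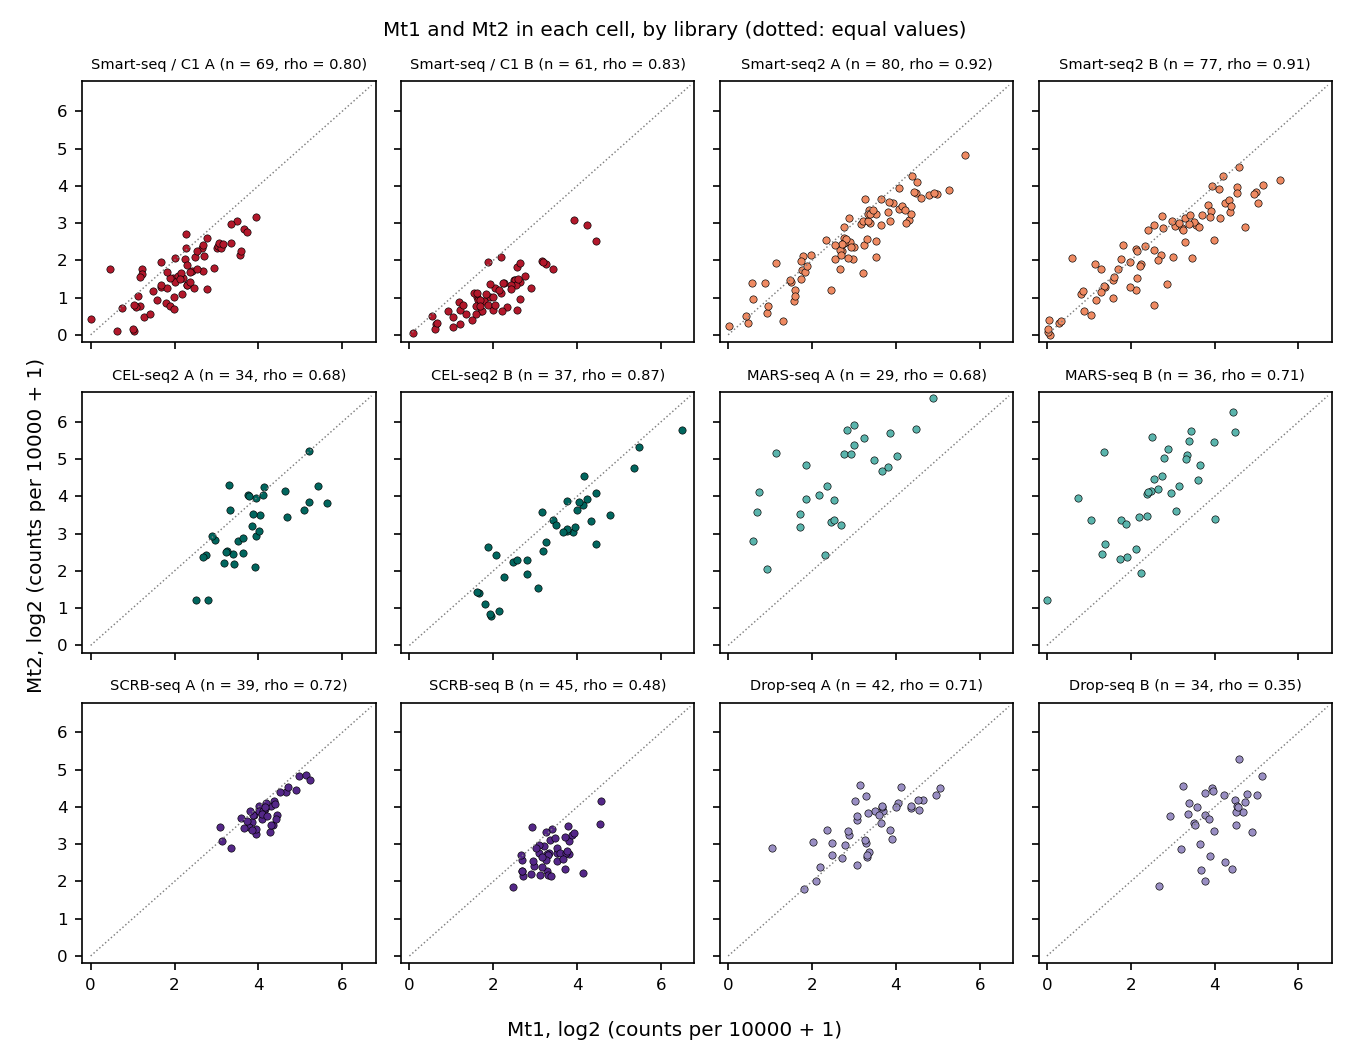
Mt1 (x axis) against Mt2 (y axis) in each cell, both as log2 (counts per 10000 + 1), in 12 panels by library; each point is a cell, the dotted line marks equal values, and rho is the Spearman correlation. Points follow a rising band in every panel, mostly above the line in MARS-seq and over a short range in SCRB-seq; rho runs from 0.35 in Drop-seq B to 0.92 in Smart-seq2 A.

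In most libraries each metallothionein was the closest gene to the other. Among 1843 genes that averaged at least 1 count per cell in each library, Mt2 was the gene most correlated with Mt1 in 10 of 12 libraries, and Mt1 the gene most correlated with Mt2 in the same 10. Mt2 ranked 4 in SCRB-seq B and 56 in Drop-seq B, and Mt1 ranked 2 and 104. In Smart-seq2 A the next gene after Mt2 was Srsf5, a splicing factor gene, at 0.34 against 0.92. In MARS-seq A the gap was narrow, with Cops3 at 0.65 against 0.68.

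Genes most like both metallothioneins were picked in the 6 A libraries by the mean of their correlations with Mt1 and Mt2 and then read in the 6 B libraries. The 10 highest of 1842 candidates were Ifitm1, Sart3, Rpl13a and Gnb1 (0.19 each), Ptov1 and Apex1 (0.18), Apoe, Dhx15 and Lars (0.17) and Ccnb2 (0.16). In the B libraries their means lay between -0.03 and 0.11, with a median of 0.02 against 0.01 over all candidates. Lars, which encodes the cytosolic leucyl-tRNA synthetase, was highest there at 0.11, and Rpl13a, of the large ribosomal subunit, stood at 0.09. The 5 lowest in A were Pdia3 and Snrpf (-0.22), Lrrc58 (-0.21), Matr3 (-0.20) and Sae1 (-0.18), with -0.07, -0.03, -0.06, 0.07 and 0.00 in B. So of the 10 highest in A, 5 lay above the median of all candidates in B.

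The zinc sensor and the transporters were only weakly correlated with the metallothioneins on average. Mtf1 averaged -0.02 with Mt1 and 0.02 with Mt2 over the 12 libraries, from -0.22 (Drop-seq A, with Mt1) to 0.31 (Smart-seq / C1 B, with Mt1). Slc39a10 averaged -0.07 with Mt1 and -0.05 with Mt2, and was below 0 with Mt1 in 10 of 12 libraries. Slc30a1 averaged 0.14 with Mt1 and 0.12 with Mt2. In CEL-seq2 B, where Slc30a1 had its highest mean at 6.38 UMIs per cell, these correlations were 0.59 and 0.62 over 37 cells, but in CEL-seq2 A, at 2.26 UMIs per cell, they were -0.04 and -0.24 over 34 cells. Thinned to 10000 counts, the CEL-seq2 B values were 0.14 and 0.21. The pairs among Mtf1, Slc30a1 and Slc39a10 averaged 0.01 to 0.07. Correlations of such sparse genes are pulled toward 0 by counting, and none is taken as a finding.

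**Figure D4:**
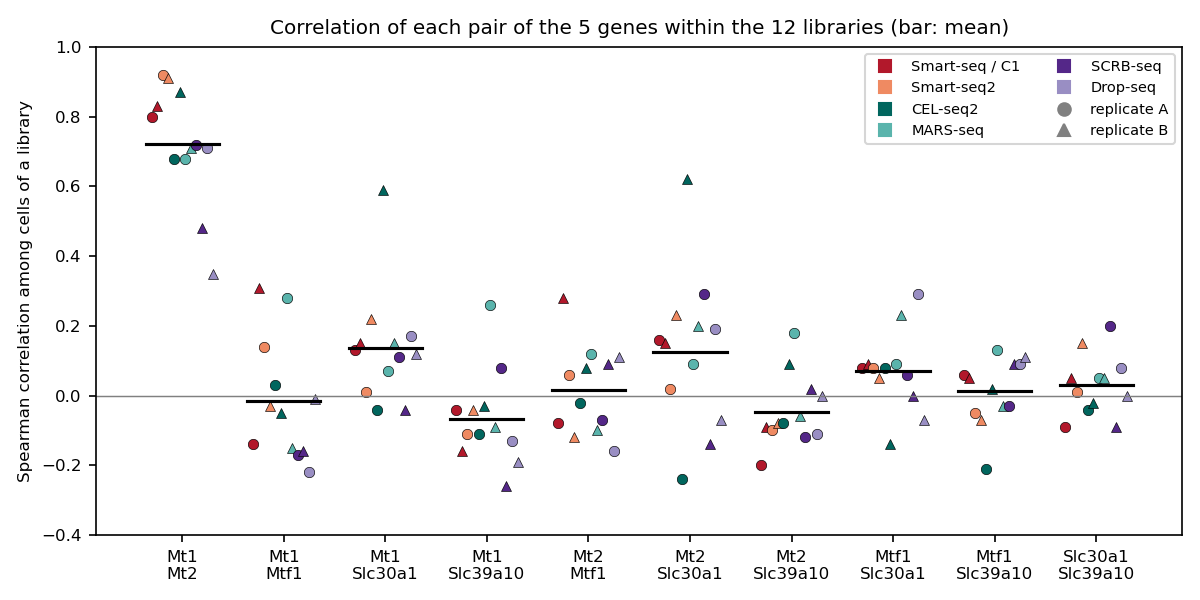
Spearman correlation among cells of a library for each of the 10 pairs of the 5 genes (x axis); each symbol is 1 of 12 libraries, coloured by protocol, and bars are means. Only Mt1 with Mt2 is above 0 in all 12 libraries, with a mean of 0.72, and CEL-seq2 B stands apart for Slc30a1 with Mt1 (0.59) and Mt2 (0.62).

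The range of metallothionein levels between cells differed between protocols, and also between the libraries of some protocols. No test was run on it. In Smart-seq2 A the lowest, median and highest cell held 0.0207, 6.75 and 49.4 Mt1 counts per 10000, and in SCRB-seq A 7.54, 16.2 and 36.7. From the 10th to the 90th percentile of cells Mt1 differed 17.4 and 27.9-fold in Smart-seq2 A and B, 16.2 and 8.62-fold with MARS-seq, 5.70 and 8.41-fold with CEL-seq2 and 8.28 and 7.49-fold with Smart-seq / C1. The same range was 6.01 and 2.97-fold with Drop-seq and 2.24 and 2.47-fold with SCRB-seq. For Mt1 SCRB-seq was the narrowest in both libraries and Smart-seq2 the widest, though Smart-seq2 counts are reads. For Mt2 SCRB-seq was again the narrowest (2.27 and 2.65-fold), but CEL-seq2 B (12.9-fold) exceeded Smart-seq2 A (12.2-fold), with Smart-seq2 B at 19.9-fold.

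With each cell thinned to 10000 counts, and with the Poisson part removed, the coefficient of variation of Mt1 was 0.385 and 0.374 in SCRB-seq A and B and 0.612 and 0.395 with Drop-seq, against 0.682 and 1.08 with CEL-seq2, 0.841 and 0.789 with MARS-seq, 0.606 and 1.12 with Smart-seq / C1 and 0.854 and 1.03 with Smart-seq2. For Mt2 it was 0.262 and 0.358 with SCRB-seq and 0.464 and 0.540 with Drop-seq, against 0.642 and 1.11 with CEL-seq2, 0.756 and 0.798 with MARS-seq, 0.481 and 0.805 with Smart-seq / C1 and 0.789 and 0.756 with Smart-seq2. The SCRB-seq libraries were the lowest for both genes, but for Mt1 the nearest, Drop-seq B, lay close, and without cells over 2 times the median depth SCRB-seq A was at 0.406, above Drop-seq B at 0.395. In the full-length protocols these 10000 counts are reads, which PCR copies, so neither the depth nor the Poisson part compares directly with that of UMIs.

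Variation was ranked as the residual above a trend on the mean. The ranking ran over all genes of the library, of like mean or not, that averaged at least 0.2 in thinned cells. By this rank Mt1 was among the most variable in most libraries. Its residual variation above the trend stood at or above the 95th percentile in 10 of 12 libraries and at or above the 99th in 7, with a mean percentile of 96.3 and its lowest value, 75.1, in Smart-seq / C1 A. Mt2 averaged 87.0, at or above the 95th percentile in 8 libraries, with 24.9 and 45.1 in Smart-seq / C1 A and B. These low values depended on the thinning: with all counts scaled instead, Mt2 stood at 76.1 and 69.3 there and Mt1 at 96.9 in Smart-seq / C1 A. In CEL-seq2 B Mt1 ranked 3 and Mt2 ranked 5 of 6186 genes. The other members were scattered where they could be ranked: Mtf1 from 9.51 to 97 in 9 libraries (mean 45.1), Slc39a10 from 23.8 to 96.7 in 10 (mean 61.2) and Slc30a1 at 22.1 in SCRB-seq A, 22.6 in CEL-seq2 A and 95.5 in CEL-seq2 B.

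**Figure D5:**
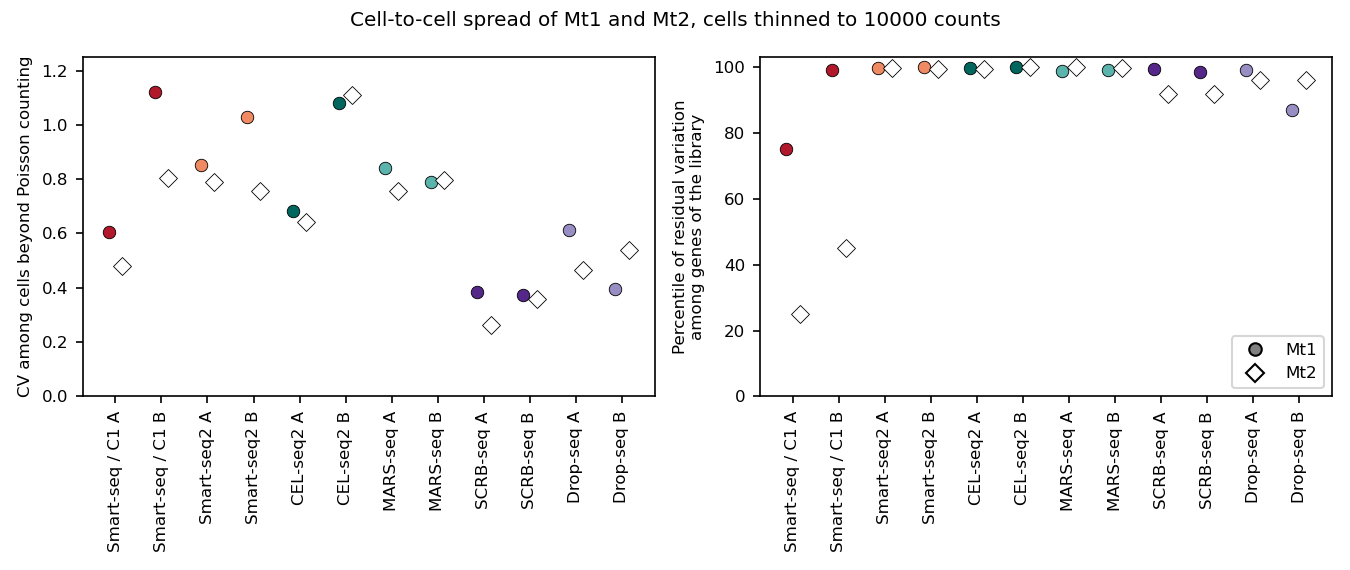
Left, coefficient of variation of Mt1 (filled circles) and Mt2 (open diamonds) among cells thinned to 10000 counts, with the Poisson part removed; right, percentile of their residual variation among the genes of that library. SCRB-seq has the smallest coefficients (0.262 to 0.385), and the percentile is lowest for Mt2 in Smart-seq / C1 A, at 24.9 (76.1 with all counts scaled in place of thinning).

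The summed metallothionein level of a cell was, averaged over libraries, nearly uncorrelated with other measures of that cell. Its mean correlation over 12 libraries was -0.07 with the total count, -0.03 with the mitochondrial share and 0.08 with the spike-in share. With summed gene lists it was 0.13 for targets of NRF2, the oxidative stress regulator, counted with NRF2 and its own regulator. It was 0.09 for zinc exporters, 0.08 for glucocorticoid targets with their receptor and 0.07 for copper handling. For MTF1 with its other targets it was 0.03, and for zinc importers -0.06. In such sums abundant genes weigh most. The MTF1 list leaves out Mt1, Mt2 and Slc30a1, and its Selenoh had a median of 196 CPM over libraries, against at most 32.9 for the rest. For cell cycle genes the mean correlation was 0.02 for G1/S and 0.09 for G2/M, and for naive markers -0.01. Single libraries strayed further, as with the mitochondrial share in Drop-seq A (-0.62) and CEL-seq2 A (0.41), whose signs differ. Endoderm markers gave 0.03 over the 11 libraries that held any, and fibroblast markers -0.03 (from -0.45 in CEL-seq2 A to 0.37 in Smart-seq2 A).

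The wider zinc machinery was compared between the protocols from lists that hold the members themselves. Of 10 zinc exporters and vesicle loaders 8 were tested, and in the full-length against tag contrast 3 were higher and 1, Slc30a1, was lower (median 0.69, all genes 0.21), beside 25.6% of all genes higher and 23.2% lower. Slc30a6, which loads zinc into the secretory pathway, was higher by 1.68 (adjusted p = 0.000168), and Slc30a2, the most abundant of the list, by 0.73 (adjusted p = 0.0392). Slc30a8 and Slc30a10 were too low to test. Of 14 zinc importers 11 were tested, and 4 were higher and 0 lower (median 1.23), Slc39a10 among them, beside the same 25.6% and 23.2%. Slc39a4, the importer best known from the intestine, differed little there (0.09, adjusted p = 0.879), but was higher with in vitro transcription than with PCR by 2.28 (adjusted p = 0.00134), with 195 CPM in CEL-seq2 A and 57.6 in B. Slc39a5, Slc39a8 and Slc39a12 were not tested.

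Among Mtf1 and 4 other genes reported as MTF1 targets, only Mtf1 was called in the full-length against tag contrast, as lower. That call rested on single libraries, as given above. The list median was -0.57 (all genes 0.21), beside 25.6% of all genes higher and 23.2% lower. Gclc, of glutathione synthesis, was higher in CEL-seq2 than in MARS-seq by 2.28 (adjusted p = 0.00222), and Ndrg1 was higher with in vitro transcription than with PCR by 2.35 (adjusted p = 0.0128). Ndrg1 stood apart in CEL-seq2 A at 111 CPM, against 12.1 in CEL-seq2 B, 17.9 and 21.2 with MARS-seq, 13.8 and 14 with SCRB-seq and 3.31 and 3.24 with Drop-seq. Selenoh did not pass the joint test (adjusted p = 0.519). Of 10 copper handling genes 3 were higher and 2 lower in the full-length protocols, near the 25.6% and 23.2% of all genes. Cox17, for a copper chaperone of mitochondria, was lower by -2.56 (adjusted p = 3.67e-08), and Atox1, the cytosolic copper chaperone, stood at -0.50 (adjusted p = 0.0885). Sco2, also for a mitochondrial copper chaperone, was lower in the full-length protocols as well (adjusted p = 4.88e-07), where all 4 libraries held 0 CPM against 1.1 to 29.2 in the tag libraries. The list of NRF2 targets also holds the genes of NRF2 itself and of its regulator. Of 10 genes tested from it 4 were higher and 1 lower (25.6% and 23.2% of all genes). Nqo1 stood at 2.05 (adjusted p = 8.02e-06) and Gsr at 0.68 (adjusted p = 0.00807), while Txnrd1, for thioredoxin reductase, stood at -0.21 (adjusted p = 0.39). Of 5 genes tested from the list of glucocorticoid targets, which also holds the receptor gene, 1 was higher and 0 lower (median -0.05). This stands beside the same shares of all genes.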

How the data were processed

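The authors deposited 1 table of counts per gene and cell, with reads counted for Smart-seq / C1 and Smart-seq2 and UMIs for the tag protocols. STAR 2.4.0, bcl2fastq and the mm10 build are named in the submitters' processing notes, while the counting program, its annotation and its use of strand are not given in the sources used here. Per the labels, cells were grouped by protocol and replicate letter. Gene IDs were matched to symbols of GENCODE M21 (37607 matched and 1317 did not), and 92 spike-ins stayed out of totals and tests.

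Counts were summed over the cells of each of 12 libraries, filtered with filterByExpr (14293 of 26619 genes with a count were kept), scaled by TMM and fitted with edgeR 4.0.16 (robust quasi-likelihood) in R 4.3.3, with 1 mean per protocol and 6 residual degrees of freedom. Calls use Benjamini-Hochberg adjusted p below 0.05 over all tested genes. The common biological coefficient of variation was 0.418. Contrasts average protocols with equal weight, and all share the same fit. Alternatives were DESeq2 1.42.0, its size factors in edgeR, no filter, a replicate block and leaving out each library. Same-lettered libraries of the 15 pairs of protocols deviated with correlations of -0.084 to 0.078, so the letters were not taken as pairs.

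Within libraries, Spearman correlations used log2 (counts per 10000 + 1). Variation among cells was the residual of log2 squared CV above a lowess trend (span 0.5) over genes with a mean of at least 0.2 at 10000 counts per cell. Cells below 10 counts of Mt1 and Mt2 together were left out of the share per cell. The median depth per cell was 16187 counts in the shallowest library (Drop-seq B) and 439869 in the deepest (Smart-seq2 A). No doublet caller was run, and 10 cells exceeded 2 times the median depth of their library. Promoters and motifs were read from RefSeq tables, and shared sequence was counted as 31-base stretches of GENCODE M21 transcripts.

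The members and gene lists were chosen with earlier results of these data known. Besides the members, the genes named from each list are the 2 with the smallest joint p and the one with the highest mean level. Genes most like the metallothioneins were the 10 highest and 5 lowest by mean correlation in the A libraries. The tests were tried on simulated data with known changes.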

Additional observations from a re-analysis of the deposited data

Results flagged for a closer look

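Mtf1 in SCRB-seq B, at 11.2 CPM, stood apart from the other 7 tag libraries, which lay between 32 and 50.1 CPM, and its gap to the nearest of them exceeded the 95% critical value of Dixon's test for 8 samples. Of the 20 groups tested this was the 1 that met the criterion, and chance gives about 1 in 20. The value rests on 24 UMIs in 45 cells.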

How the results depend on the processing

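No called difference of a member reversed its direction. Some differences that were not called did. For Drop-seq against SCRB-seq, Mt1 (-0.02) became 0.20 with DESeq2's size factors and by DESeq2, and leaving out each library in turn gave -0.39 to 0.52 for Mt1, -0.21 to 1.05 for Mt2 (0.27 with all libraries) and -1.04 to 0.13 for Slc30a1 (-0.45). Mtf1 in Smart-seq / C1 against Smart-seq2 (-0.03) did not turn positive. It became 0.00 with DESeq2's size factors and by DESeq2, and -0.18 to 0.00 with a library left out. Of the called differences, those of Mt1, Mt2, Slc30a1 and Slc39a10 between full-length and tag protocols and that of Slc39a10 between in vitro transcription and PCR held under all 16 alternatives, with log2 values of -1.23 to -0.69, -2.29 to -1.69, -1.47 to -0.89 and 1.26 to 1.77 for the 4 genes of the former. The number of genes called for Drop-seq against SCRB-seq was 216, but 325 with DESeq2's size factors, 469 with no filter on low counts and 954 with DESeq2, and 2591 had an unadjusted p below 0.05. Leaving out each library in turn gave 11 to 626 there, 1746 to 3845 (3144 with all libraries) for in vitro transcription against PCR, 609 to 3305 (2223) for Smart-seq / C1 against Smart-seq2 and 1779 to 3932 (3341) for CEL-seq2 against MARS-seq. A protocol left with 1 library is assumed to vary like the others. With the replicate letter as a block, 6815 genes were called between full-length and tag protocols (6975 without it), 2961 between in vitro transcription and PCR, 2074 between Smart-seq / C1 and Smart-seq2, 3169 between CEL-seq2 and MARS-seq, 183 between Drop-seq and SCRB-seq and 9004 jointly (9354 without it). Of the member calls the block changed only that of Mt1 in Smart-seq / C1 against Smart-seq2. As the median over cells, the share of Mt1 was 57.8% in Smart-seq2, 61.8% in CEL-seq2 and 20.4% in MARS-seq. The mean correlation of Mt1 with Mt2 was 0.75 by Pearson's method and 0.70 to 0.76 without any 1 library. The causes of these shifts were not tested. Depth limits Slc30a1 and Slc39a10 most, with 5 to 14 UMIs in all in the sparsest libraries.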
